A study of Mus musculus with 6 samples.

Results

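The genes described here are 10 lipogenic genes, the enzymes and carriers that build fatty acids from cytosolic acetyl-CoA together with their transcription factors. They were picked by gene symbol and are 10 of the 54532 genes in the deposited count table: Acly, Acss2, Acaca, Acacb, Fasn, Me1, Slc25a1, Thrsp, Mlxipl and Srebf1. RNA was sequenced from inguinal white adipose tissue, a subcutaneous depot in the groin, taken from mice described as old aged. All animals were kept in the cold for 7 days, so cold is common to both groups and there is no group at room temperature. Of the 6 libraries, 3 belong to the vehicle group and 3 to the group given estrogen. The sources used here do not give the form and dose of estrogen, nor the sex, strain or age in months. They also do not say whether libraries came from different animals. The p-values therefore reflect spread among libraries, which may be technical. Values listed for a group follow replicates 1, 2 and 3, an order with no meaning of its own.

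Fat cells make fatty acids from citrate that the mitochondria export. Citrate is split to acetyl-CoA in the cytosol, acetyl-CoA is carboxylated to malonyl-CoA, and fatty acid synthase joins these units with electrons from NADPH. Transcription of this pathway is driven by SREBP-1c, an insulin-responsive factor encoded by Srebf1 whose gene is a target of the liver X receptors (LXR), and by ChREBP, a glucose-sensing factor encoded by Mlxipl. In brown and beige fat, cold is known to raise lipogenesis alongside fatty acid burning.

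The promoters of the members were searched for elements described for lipogenic promoters. Whether these elements relate to the levels of the genes was not tested. Of the 10 genes, 10 matched the RefSeq promoter table (GRCm38.p6), with 14 tabulated starts. The 5 windows below are shown because they start at the deposited 5′ end of the most abundant member (Fasn), of Acly, and of the 2 members with an E-box (Slc25a1, Mlxipl), or because they hold the LXR-type letters shared with Fasn (Srebf1, at a start 12110 bases inside the deposited gene). Each is the 250 bases before the start, 5′ to 3′ on the strand of the gene, at chr11:120824548-120824797 (minus) for Fasn, chr11:100528001-100528250 (minus) for Acly, chr16:17928220-17928469 (minus) for Slc25a1, chr5:135089640-135089889 (plus) for Mlxipl and chr11:60210472-60210721 (minus) for Srebf1. The Srebf1 window lies within an intron of the longer transcripts and the other 4 lie just outside the deposited gene. Capitals mark the motifs searched on both strands, namely CACGTG (E-box core), TCACNCCAC (sterol regulatory element core), CCAAT (NF-Y box), GGGCGG (Sp1 box), AGGTCA (nuclear receptor core) and AGTAACCCC, a stretch of the LXR elements described for Fasn and Srebf1, which was added after the sequences were seen.
Fasn: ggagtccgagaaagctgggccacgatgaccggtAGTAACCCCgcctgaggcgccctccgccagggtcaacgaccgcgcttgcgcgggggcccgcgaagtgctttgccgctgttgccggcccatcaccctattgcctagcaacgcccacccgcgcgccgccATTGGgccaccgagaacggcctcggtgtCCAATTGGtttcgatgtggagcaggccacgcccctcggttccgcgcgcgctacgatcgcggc
Acly: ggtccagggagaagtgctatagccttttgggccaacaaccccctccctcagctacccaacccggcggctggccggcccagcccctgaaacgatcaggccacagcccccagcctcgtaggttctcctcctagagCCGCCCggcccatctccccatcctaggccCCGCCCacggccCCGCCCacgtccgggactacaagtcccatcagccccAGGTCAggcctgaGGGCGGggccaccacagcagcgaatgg
Slc25a1: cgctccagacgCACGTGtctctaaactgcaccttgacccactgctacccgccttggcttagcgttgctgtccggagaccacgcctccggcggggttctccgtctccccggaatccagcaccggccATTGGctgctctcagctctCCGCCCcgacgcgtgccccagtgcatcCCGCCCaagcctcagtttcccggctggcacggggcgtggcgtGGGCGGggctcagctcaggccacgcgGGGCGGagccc
Mlxipl: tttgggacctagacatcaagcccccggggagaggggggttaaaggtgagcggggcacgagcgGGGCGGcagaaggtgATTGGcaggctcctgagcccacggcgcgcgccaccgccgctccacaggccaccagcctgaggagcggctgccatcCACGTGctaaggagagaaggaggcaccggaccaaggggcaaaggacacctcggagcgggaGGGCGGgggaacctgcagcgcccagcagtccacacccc
Srebf1: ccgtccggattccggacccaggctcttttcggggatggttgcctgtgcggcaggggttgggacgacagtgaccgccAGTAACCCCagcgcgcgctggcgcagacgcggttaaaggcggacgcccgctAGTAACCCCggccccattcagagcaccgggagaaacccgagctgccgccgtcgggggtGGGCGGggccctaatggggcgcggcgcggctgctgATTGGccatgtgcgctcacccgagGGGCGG

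AGTAACCCC was present in the Fasn window, with its first base at -217 from the start, and at 2 places, -174 and -123, in the Srebf1 window. It occurred in 40 of 32851 tabulated promoters (0.122%). These letters were taken from elements described for these 2 genes, so finding them there is not a test. At the start nearest the deposited 5′ end, 1 of the 10 members, Fasn, held them. CCAAT was present in 7 of the 10 members at the start nearest the deposited 5′ end, against 33.9% of all promoters. The percentages given here count every tabulated start, while each member is counted at 1 start. Over all member starts, 9 of 14 held CCAAT. Acacb, one of the 7, held it at a start inside the deposited gene. The Fasn window held it 3 times, at -90, -62 and -59, the last pair overlapping. GGGCGG was present in 5 of 10 members (32.7% of promoters), with 4 copies each in Acly, Acss2 and Slc25a1. CACGTG was present in 2 members (6.02% of promoters), Slc25a1 and Mlxipl. AGGTCA was present in 1, Acly (14.0%), and TCACNCCAC in 0 at these starts (1.05%), although a second Mlxipl start had it. The other motifs were picked as elements described for lipogenic promoters, so their counts in these genes are not a test either. Also, 10 genes are few, and a match of letters is a description, not a binding site. For Acaca and Acacb the tabulated starts lie 65766 and 18983 bases inside the deposited genes, so their first promoters were not searched.

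Library totals ran from 16046601 to 20736771 counts, and each member had between 3204 and 618154 counts in every library, so counting error is small beside the spread between libraries. All 10 passed the low-count filter. Libraries differed in ways the groups do not explain. Skeletal muscle markers summed to 7117 CPM (counts scaled to library size with TMM factors) in estrogen replicate 1 and to between 2.86 and 59.7 CPM in the other 5. B cell markers summed to 151 and 99.0 CPM in estrogen replicates 1 and 3 and to between 3.96 and 6.64 CPM elsewhere. Ucp1, the heat-producing uncoupling protein of brown and beige fat, was at 10.2 CPM in estrogen replicate 3 against 333 to 1754 CPM in the others. Of the 6 brown and beige markers, Ucp1 and Cox7a1 were lowest in that library and the other 4 were not, with Ppargc1a highest there. Adipocyte markers were present throughout, with Adipoq, which encodes adiponectin, at 838 CPM or more in every library.

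All 10 genes were higher in every estrogen library than in any vehicle library, by 1.44-fold for Srebf1 to 3.05-fold for Acacb. Such a complete separation upward was found for 12.8% of the 15591 genes tested. The median log2 fold change (estrogen over vehicle) of the 10 was 1.14, or 2.20-fold, while the median of all tested genes was 0.0025 and 50.3% of them were above 0. By edgeR's quasi-likelihood test 0 of 10 passed an adjusted p of 0.05 (adjusted p = 0.207 for each), as did 0% of all genes in the upward direction. At an unadjusted p under 0.05, all 10 were higher, against 9.49% of all genes higher and 10.9% lower. DESeq2 called 10 of 10 higher, against 2.62% higher and 3.14% lower of the 14631 genes to which it gave an adjusted p, and limma-voom called 0 of 10 and 0% of all genes. The DESeq2 count depended on single libraries: it was 1 (Acly) without vehicle replicate 2, 5 without vehicle replicate 3, 8 without estrogen replicate 2 and 6 without estrogen replicate 3. The share of all genes that DESeq2 called higher was 0.139, 1.199, 3.07 and 1.23% in these 4 fits, in the same order.

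**Figure D1:**
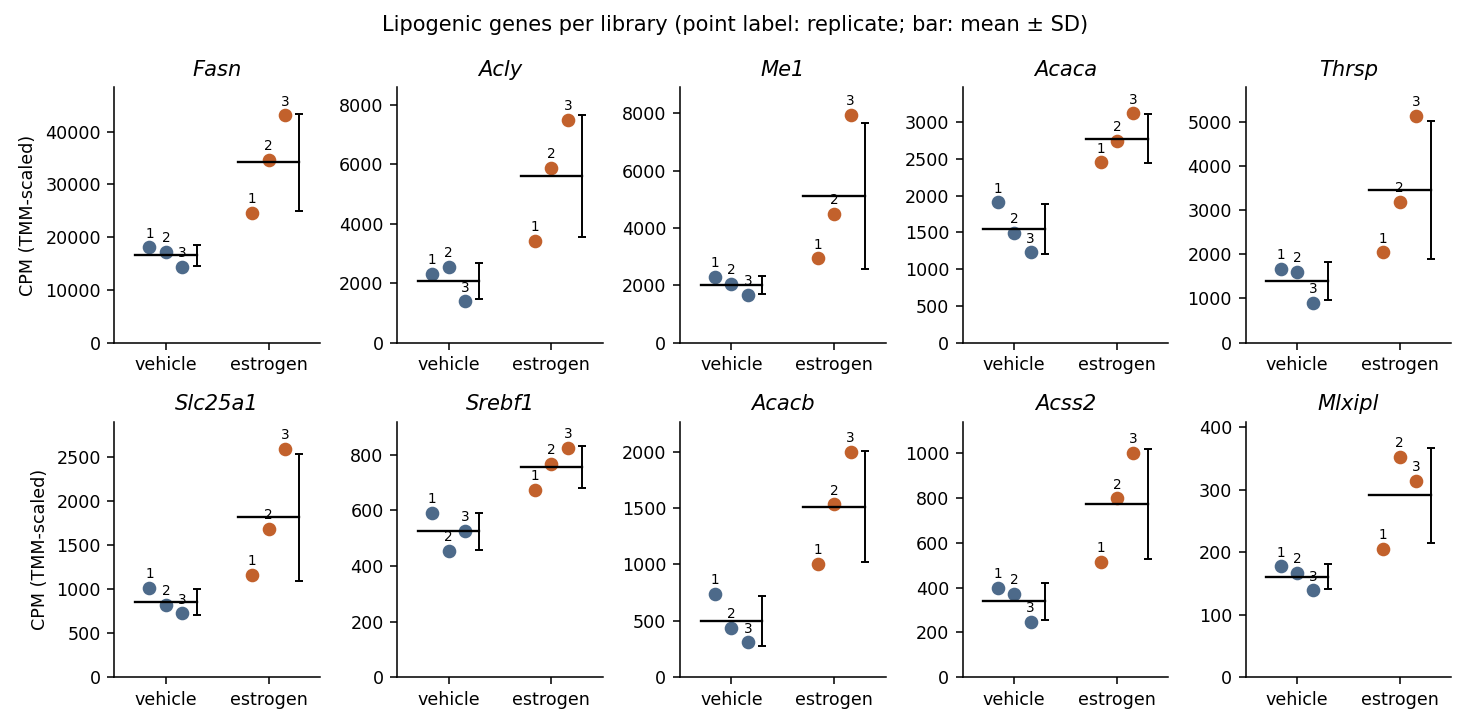
CPM (TMM-scaled, linear axes from 0) of each lipogenic gene in the 3 vehicle and 3 estrogen libraries; numbers are replicates, bars are mean ± SD. In each panel the 3 estrogen points lie above the 3 vehicle points, with the closest approach in Srebf1, Slc25a1 and Mlxipl.

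Together the 10 genes took 3.005, 2.82 and 2.39% of all counts with vehicle and 3.91, 5.34 and 6.40% with estrogen. Every estrogen share was above every vehicle share, and the estrogen libraries were further apart. Fasn alone took 1.59 to 1.86% with vehicle and 2.47 to 3.75% with estrogen. Estrogen replicate 3 was the highest library for 9 of the 10 genes, and vehicle replicate 3 the lowest for 9. Srebf1 was lowest in vehicle replicate 2 and Mlxipl highest in estrogen replicate 2.

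The supply of cytosolic acetyl-CoA runs through Slc25a1, Acly and Acss2. Slc25a1, the mitochondrial carrier that exports citrate (ENSMUSG00000003528, chromosome 16, 17925223 to 17928219, mm10), was at 1014, 822 and 728 CPM with vehicle and at 1167, 1691 and 2595 CPM with estrogen. Estrogen replicate 1 lay close to vehicle replicate 1, and estrogen replicate 3 well above the rest. Its log2 fold change was 1.09 ± 0.31 (SE), and 0.75 without estrogen replicate 3.

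Acly, ATP citrate lyase, which splits that citrate into acetyl-CoA and oxaloacetate (ENSMUSG00000020917, chromosome 11, 100476353 to 100528000), was at 2308, 2544 and 1387 CPM with vehicle and at 3430, 5884 and 7476 CPM with estrogen. The lowest estrogen library was clear of the highest vehicle library. The log2 fold change was 1.43 ± 0.36 (SE), a 2.69-fold difference with a 95% interval of 1.51 to 4.80. Acly was the one member that DESeq2 also called without vehicle replicate 2 (adjusted p = 0.0276).

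Acss2, which makes acetyl-CoA from acetate instead (ENSMUSG00000027605, chromosome 2, 155517948 to 155585724), was at 399, 373 and 246 CPM with vehicle and at 515, 798 and 1001 CPM with estrogen. Its log2 fold change was 1.18 ± 0.29 (SE). Acss2 shares 395 exon bases with Gss on the other strand. Gss had 381 to 636 counts against 5660 or more for Acss2, and whether counting used the strand is not given. The log2 ratio of Acss2 to Acly within a library was -2.60 ± 0.15 with vehicle and -2.84 ± 0.09 with estrogen (SD, n = 3), a difference of -0.24 in an exact permutation test with p = 0.2. The smallest p that 3 against 3 allows is 0.1.

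Acaca and Acacb encode the acetyl-CoA carboxylases, which make malonyl-CoA. The product of Acaca feeds fatty acid synthesis in the cytosol. That of Acacb sits at the mitochondrial outer membrane, where malonyl-CoA restrains fatty acid entry, and is known to prevail in muscle. Acaca (ENSMUSG00000020532, chromosome 11, 84129672 to 84401651) was at 1908, 1493 and 1230 CPM with vehicle and 2453, 2747 and 3121 CPM with estrogen. The estrogen libraries lay close together. Acaca had a log2 fold change of 0.85 ± 0.22 (SE).

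Acacb (ENSMUSG00000042010, chromosome 5, 114146535 to 114250761) was at 741, 439 and 309 CPM with vehicle and 1008, 1533 and 1998 CPM with estrogen. It spread widely in both groups, and its log2 fold change of 1.61 ± 0.38 (SE; 3.05-fold, 95% interval 1.64 to 5.67) was the largest of the 10. The library rich in muscle markers, estrogen replicate 1, had the lowest Acacb of the estrogen group, as it had for every other member. Relative to the mean over the 6 libraries, log2 CPM there was 0.29 for Acacb, 0.26 for Acaca and 0.07 for the average of the 10. In the other 2 estrogen libraries muscle markers summed to 4.52 and 2.86 CPM. The part of muscle in the Acacb values was not tested. The log2 ratio of Acacb to Acaca was -1.71 ± 0.32 with vehicle and -0.92 ± 0.33 with estrogen (SD, n = 3). The difference was 0.79, with every estrogen library above every vehicle library but estrogen replicate 1 (-1.28) next to vehicle replicate 1 (-1.37). Its exact two-sided permutation p was 0.1, the smallest possible, and 0.2 after adjustment over the 3 ratios tested. Per kilobase of gene length the ratio of Acacb to Acaca was 0.543 with vehicle and 0.935 with estrogen.

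Fasn, the fatty acid synthase that carries out chain assembly (ENSMUSG00000025153, chromosome 11, 120805846 to 120824547), was at 18058, 17168 and 14331 CPM with vehicle and 24656, 34695 and 43053 CPM with estrogen. Vehicle libraries were close to each other, at 16519 ± 1946 CPM, and estrogen libraries at 34135 ± 9211 CPM (SD, n = 3). The log2 fold change was 1.05 ± 0.29 (SE), with a 95% interval of 1.30 to 3.29 in fold terms.

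Me1, the cytosolic malic enzyme that yields NADPH (ENSMUSG00000032418, chromosome 9, 86581371 to 86695953), was at 2291, 2043 and 1671 CPM with vehicle and 2936, 4480 and 7930 CPM with estrogen. Estrogen replicate 3 stood far above the other 2. The log2 fold change of 1.35 ± 0.37 (SE) was 0.89 without it. Thrsp, known as Spot 14, a small nuclear and cytosolic protein that promotes lipogenesis (ENSMUSG00000035686, chromosome 7, 97412938 to 97417730), was at 1677, 1596 and 905 CPM with vehicle and 2041, 3186 and 5137 CPM with estrogen. It too was highest in estrogen replicate 3. The log2 fold change was 1.31 ± 0.39 (SE), and 0.91 without that library.

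The genes of the transcription factors had 2 of the 3 smallest log2 fold changes among the members. Srebf1 (ENSMUSG00000020538, chromosome 11, 60199089 to 60222581) was at 591, 455 and 527 CPM with vehicle and 674, 766 and 825 CPM with estrogen. The groups did not overlap but lay close, and the log2 fold change of 0.53 ± 0.16 (SE; 95% interval 0.15 to 0.91) was the smallest of the 10. Counts per gene do not separate the SREBP-1a and SREBP-1c transcripts. Srebf1 shares 109 exon bases with Rai1 on the other strand, which had 526 to 947 counts. Mlxipl (ENSMUSG00000005373, chromosome 5, 135089890 to 135138382) was at 177, 167 and 139 CPM with vehicle and 206, 352 and 315 CPM with estrogen. Estrogen replicate 1 was nearer the vehicle libraries than the other 2 estrogen libraries. Mlxipl had a log2 fold change of 0.85 ± 0.22 (SE). The log2 ratio of Mlxipl to Srebf1 differed by 0.29 between the groups (exact permutation p = 0.2), and the 95% intervals of their fold changes overlap with those of the other members.

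**Figure D2:**
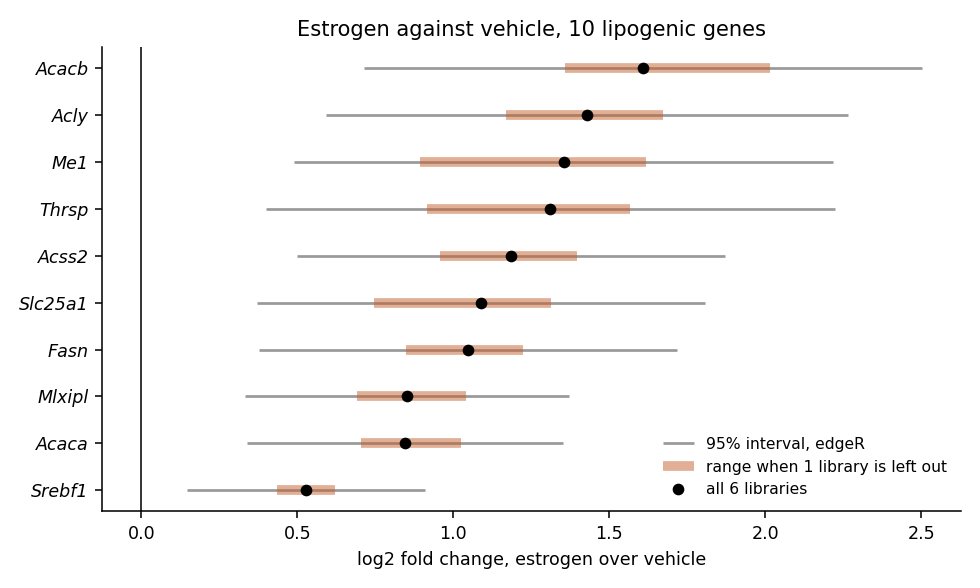
Log2 fold change, estrogen over vehicle, of the 10 genes: points use all 6 libraries, grey lines are 95% intervals from edgeR's standard errors without adjustment for the number of genes, and orange bars span the values when 1 library is left out. All values lie above 0, from 0.53 for Srebf1 to 1.61 for Acacb.

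Levels of different genes were compared per kilobase of deposited gene length (RPKM), which counts all annotated exons and so understates genes with rarely used ones. With vehicle the order of mean RPKM was Fasn 1509 ± 178, Thrsp 636 ± 194, Me1 520 ± 81.0, Slc25a1 395 ± 67.5, Acly 394 ± 116, Srebf1 93.1 ± 12.02, Acaca 90.4 ± 20.05, Acacb 51.5 ± 23.0, Acss2 33.4 ± 8.09 and Mlxipl 29.1 ± 3.59 (SD, n = 3). Neighbours in this order overlapped within 1 SD of their means, except Fasn with Thrsp and Acly with Srebf1. With estrogen Fasn was at 3118 ± 841, Thrsp at 1578 ± 715, Me1 at 1329 ± 664, Acly at 1060 ± 386 and Slc25a1 at 840 ± 334 RPKM. Acaca was then at 162 ± 19.6, Acacb at 157 ± 51.4 and Srebf1 at 134 ± 13.5 RPKM, above Acss2 at 75.9 ± 24.1 and Mlxipl at 52.6 ± 13.7 RPKM. Neighbours again overlapped within 1 SD, except Slc25a1 with Acaca and Srebf1 with Acss2. Fasn was first and Mlxipl last in both groups.

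Each gene's log2 CPM was centred on its mean over the 6 libraries to compare shapes. The mean of the 10 lay at -0.28, -0.49 and -0.88 with vehicle and at 0.07, 0.61 and 0.97 with estrogen. Acss2 and Fasn lay closest to this mean profile (root mean square distance 0.076 and 0.092 log2 units) and Srebf1 and Acacb farthest (0.380 and 0.343), one with a smaller and the other with a larger range. The search outside the members covered 11817 genes with a mean log2 CPM of 1 or more. Names that mark predicted models, clones or pseudogenes were left out. The 5 nearest profiles were those of Tkt (0.105), Fabp5 (0.133), Pygl (0.143), Sorl1 (0.144) and Rce1 (0.145). Tkt encodes transketolase of the pentose phosphate pathway, Fabp5 a fatty acid binding protein and Pygl a glycogen phosphorylase.

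Adipocyte markers were compared in the same libraries, since in bulk tissue a change in the number of cells of a type and in RNA per cell cannot be told apart. The 13 adipocyte markers summed to between 28649 and 42170 CPM with vehicle and between 39924 and 66410 CPM with estrogen. Of the 13, 11 had a positive log2 fold change (median 0.46), 0 had an unadjusted p under 0.05 and 0 were called by edgeR or DESeq2. When the mean log2 CPM of these markers was subtracted in each library, the 10 lipogenic genes averaged 0.75 log2 units higher with estrogen. The difference was 1.10 without the subtraction. After it, the mean of the 10 genes was -0.13, -0.07 and -1.001 with vehicle and 0.06, 0.603 and 0.37 with estrogen. Vehicle replicate 3 lay far below the other vehicle libraries, and estrogen replicate 1 lay close to vehicle replicates 1 and 2. How far the 0.75 depends on vehicle replicate 3 was not tested. After the subtraction each estrogen library was above each vehicle library for 6 of the 10 genes. The share of all tested genes with such a separation after the subtraction was not computed. The groups overlapped for Acaca, Thrsp, Mlxipl and Srebf1, and Srebf1 differed by 0.18.

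Markers of other cell types moved in the same libraries. The 10 progenitor and fibroblast markers all had lower fold changes with estrogen. Their summed levels were 12084 to 33928 CPM with vehicle and 1281 to 8451 CPM with estrogen. Collagens weigh heavily in these sums: Col3a1 and Col1a1 were at 18902 and 11338 CPM in vehicle replicate 2. In estrogen replicate 3 they were at 443 and 162 CPM. Cd55 and Dcn overlapped between the groups. The 10 macrophage markers were also all lower with estrogen, at 2728 to 3911 against 680 to 2052 CPM. At an unadjusted p under 0.05, 7 of 10 progenitor and 8 of 10 macrophage markers were lower, against 10.9% of all tested genes. By adjusted p, edgeR called 0 of either list. DESeq2 called 2 progenitor markers (Ly6a and Lum) and 1 macrophage marker (Mrc1) lower, against 3.14% of genes given an adjusted p. Both lists were lowest in estrogen replicate 3, where most members were highest. The summed brown and beige markers, mostly Ucp1 except in estrogen replicate 3, overlapped between the groups, at 523 to 1334 and 261 to 2595 CPM. Mammary epithelial markers, which groin fat pads of female mice can contribute, summed to at most 1.66 CPM, with Krt5, Krt14 and Wap at 0 in every library. Endothelial markers were at 464 to 688 against 583 to 772 CPM and red blood cell markers at 624 to 1098 against 1078 to 1776 CPM. The part of these cell types in the lipogenic values was not tested.

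**Figure D3:**
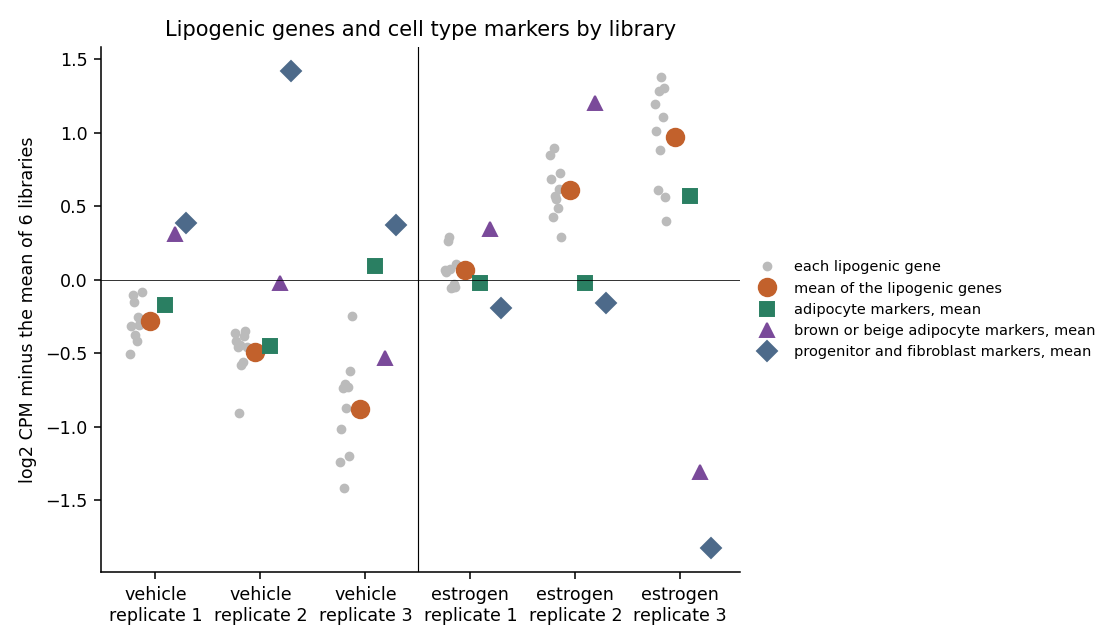
Log2 CPM minus the mean of the 6 libraries for the 10 lipogenic genes (grey), their mean (orange) and the means of 3 marker lists. The lipogenic mean lies below 0 in the 3 vehicle libraries and above 0 in the 3 estrogen libraries, while adipocyte markers reach 0.57 in estrogen replicate 3 and the mean of the brown or beige markers lies at -1.30 there.

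The steps around the pathway were read from the same fit, where edgeR called 0 genes of every list in either direction. For comparison with the list counts, 9.49% of all tested genes were higher and 10.9% lower at an unadjusted p under 0.05. DESeq2 called 2.62% higher and 3.14% lower of the genes to which it gave an adjusted p. Scaling by library totals alone moved the median of all tested genes to -0.17, and the list medians with it, to 0.016 for the ChREBP list, 0.10 for carboxylase regulators and 0.045 for insulin and glucose input. In citrate supply, 11 of 11 genes were positive with a median log2 fold change of 0.73, 10 had an unadjusted p under 0.05 and DESeq2 called 7 higher. Pcx, pyruvate carboxylase, was at 0.999 ± 0.25 (SE), and the pyruvate dehydrogenase genes Pdhb, Dlat and Pdha1 at 0.88, 0.81 and 0.73. In NADPH supply, 8 of 8 were positive (median 0.52), 5 had an unadjusted p under 0.05 and DESeq2 called 3 higher. Tkt was at 1.02 ± 0.26, Pgd and G6pdx, the NADPH-yielding dehydrogenases of the pentose phosphate pathway, at 0.81 and 0.74, and Pgls at 0.53. Idh1, another cytosolic source of NADPH, was at 0.07 ± 0.14.

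Elongation and desaturation genes act on fatty acid chains, among them the palmitate that Fasn makes. Of 15 tested, 13 were positive (median 0.69), 6 were higher and 1 lower at an unadjusted p under 0.05, and DESeq2 called 3 higher. Elovl6, which extends palmitate, was at 471 ± 203 CPM with vehicle and 1339 ± 277 CPM with estrogen (SD, n = 3), and its log2 fold change was 1.51 ± 0.36 (SE). Tecr and Hsd17b12 of the elongation cycle were at 0.89 and 0.50, and Elovl1, which acts on very long chains, at -0.48. The 3 genes that DESeq2 called were Elovl6, Tecr and Scd1, a desaturase at 0.80 ± 0.28 (SE). Without estrogen replicate 3 the median of the list was 0.40.

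Genes that control SREBP and LXR activity, and partners and targets of ChREBP, were read next. In the SREBP and LXR list 8 of 16 were positive with a median of 0.0017, and DESeq2 called 1 higher and 1 lower. Insig1, which retains SREBP in the endoplasmic reticulum and is itself a target of it, was at 287 ± 100 CPM with vehicle and 540 ± 131 CPM with estrogen (log2 fold change 0.91 ± 0.28). Nr1h3, which encodes LXR alpha, was at 0.47 ± 0.17, Nfya, a subunit of the factor that binds CCAAT, at -0.64 ± 0.16 and Usf1, an E-box factor, at -0.29 ± 0.11. Scap, the SREBP escort protein, was at 0.0042 ± 0.11. In the ChREBP list 6 of 7 tested were positive (median 0.19), 1 was higher and 1 lower at an unadjusted p under 0.05, and DESeq2 called 1 lower. Without estrogen replicate 3 the median of this list was 0.12. Mlx, the obligate partner of ChREBP, was at 0.27 ± 0.14, Gpd1 at 0.80 ± 0.30, Khk at 0.32 and Arrdc4, a glucose-responsive arrestin gene, at -0.75 ± 0.15. Pklr was too low to test.

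Among carboxylase regulators 10 of 11 were positive (median 0.28), 2 had an unadjusted p under 0.05 and DESeq2 called 1 higher. Mlycd, which breaks down malonyl-CoA and so opposes the carboxylases, was at 0.62 ± 0.16, and Mid1ip1, a relative of Thrsp that activates them, at 0.62 ± 0.30. The AMPK subunit genes Prkaa1 and Prkaa2, whose kinase inactivates the carboxylases, were at 0.28 and 0.68. Prkaa2, prominent in muscle, was highest in estrogen replicate 1 (34.4 CPM), the library rich in muscle markers. Of the insulin and glucose input genes 9 of 11 were positive (median 0.21), 3 had an unadjusted p under 0.05 and DESeq2 called 1 higher. That gene was Slc2a4, the insulin-responsive glucose transporter, at 0.87 ± 0.18. Without vehicle replicate 2 the median of the list was 0.12. Pik3r1, Mtor and Rptor were at 0.98, 0.48 and 0.21, and Irs1 and Akt1 at -0.23 and -0.19.

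**Figure D4:**
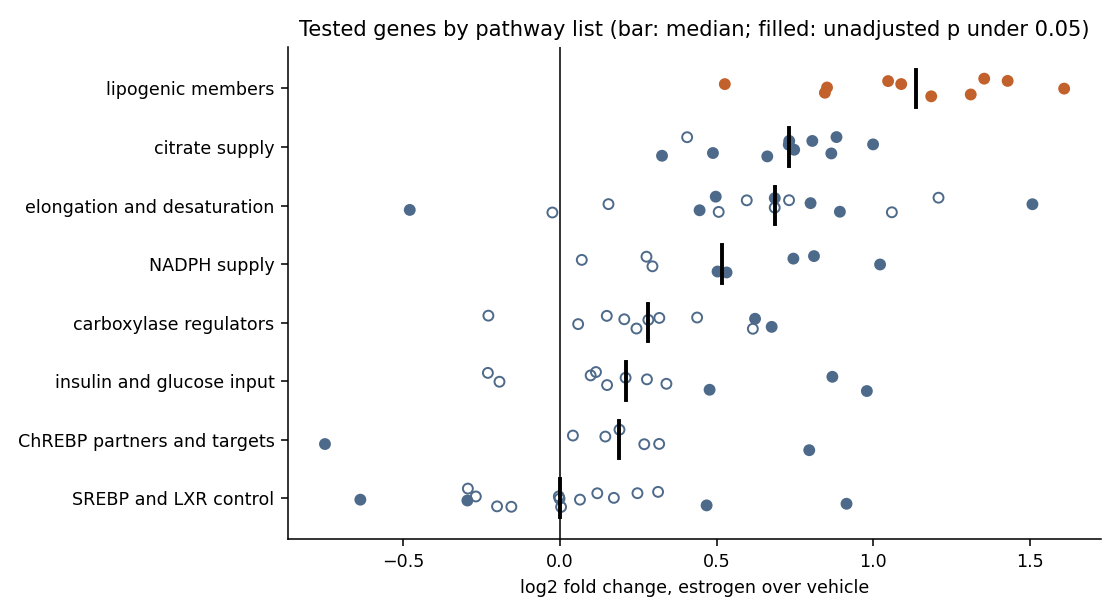
Log2 fold change, estrogen over vehicle, of the tested genes of each list; filled points have an unadjusted p under 0.05 and bars are medians. The lipogenic median (1.14) lies right of citrate supply (0.73), elongation and desaturation (0.69) and NADPH supply (0.52), and the SREBP and LXR list is centred at 0.0017.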

How the data were processed

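RNA-seq reads were aligned with HISAT2 to mm10 and counted per gene with featureCounts, per the submitters' processing notes. The sources used here do not give versions, the strand setting, the annotation release or how multi-mapping reads were treated. The authors deposited raw counts per gene for the 6 libraries and a length in bases for each gene, which for the 10 members equals the merged exon length in GENCODE M21. Groups and replicate numbers came from the sample titles. The numbers in the count table differ from these: replicates 1, 2 and 3 are numbered 1, 3 and 4 there for vehicle and 1, 2 and 4 for estrogen.

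The 15591 genes kept by filterByExpr were scaled with TMM factors and compared with edgeR (quasi-likelihood test; p-values adjusted by Benjamini-Hochberg over all these genes; threshold 0.05). Alternatives used DESeq2 1.42.0 and limma 3.58.1, beside edgeR 4.0.16 in R 4.3.3. CPM and RPKM use TMM-scaled totals, log2 CPM a prior count of 1, and standard errors come from the F statistic. Ratios were compared by exact two-sided permutation tests.

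The members, gene lists and tests were chosen with earlier results of these data known. Named genes are the 10 members, up to 4 genes of smallest p per list, and the 5 non-member genes nearest the members' mean profile. Idh1, Scap, Scd1, Irs1, Akt1 and the markers Ucp1 and Adipoq were added after their values were seen. So were Pklr, Krt5, Krt14 and Wap (too low to test), the other named markers, and Gss and Rai1, which overlap members. Libraries of a group differed by more than counting noise in every pair (chi-square per degree of freedom 41.7 to 88.6). Protein sequences were not analysed here.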

Additional observations from a re-analysis of the deposited data

How the results depend on the processing

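All 120 alternative values of the 10 log2 fold changes were positive (scaling, filter, DESeq2, limma-voom, replicate block, each library left out). For each gene every estrogen library was above every vehicle library, so these signs were largely set in advance. The 10 values from DESeq2 were the ones that crossed the threshold. DESeq2 called 10 members, 384 genes higher and 460 lower, where edgeR called 0. Leaving out 1 library gave edgeR 0 members each time, 0 to 13 genes higher (13 without estrogen replicate 2) and 0 lower, and a member median of 0.87 (without estrogen replicate 3) to 1.35. With DESeq2, leaving out 1 library, a check chosen after seeing the data, gave 1 to 10 members. The median was 0.95 with library totals alone, where the median of all tested genes moved to -0.17, a difference of 1.12 between the 2 against 1.13 with TMM factors. With the replicate block the median was 1.09 and edgeR called 0 members. That block used the title numbers, and in the count table's own numbers only the libraries called replicates 1 and 3 share one. Deviations from the group means correlated across genes at r of -0.13, 0.15 and 0.28 for title replicates 1, 2 and 3. Between unlike numbers r ran from -0.35 to 0.18. The 0.28 was the highest of all pairs, so these values do not settle whether the numbers pair the samples. The labels do not say that they do, and the main fit was unpaired. Prior counts of 0.25 and 5 left the 3 ratios with the same sign. Taking the whole 300 bases, 8 members held CCAAT and 2 held AGGTCA. Precision is limited by 3 libraries per group, not by depth.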
